A study of Mus musculus with 9 samples.

Results

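Dendritic cells exposed to trichostatin A (TSA) were compared with untreated dendritic cells across all 12393 genes that the arrays represent by name. The comparison rests on 6 of the 9 arrays of the series, 3 of TSA-treated and 3 of untreated cells, and the other 3 carry butyrate-treated cells. A gene entered if a probe set other than a control carried its symbol and no other, whatever its change, and where a gene had several probe sets, the brightest on average over the 9 arrays stood for it. Every value is a log2 expression level made by RMA, and a change is the mean of the TSA arrays minus the mean of the untreated arrays. A difference of 1 on this scale is 2-fold.

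All 3 groups were Flt3L-elicited DC from mouse spleen. The mice were 6 to 8 weeks old and bore B16 melanoma tumours that express Flt3L, a growth factor that expands dendritic cells, and the cells were purified on CD11c magnetic beads. Untreated cells therefore share the tumour, the Flt3L and the bead selection with the treated cells. The labels give no strain, no dose and no duration of treatment. Nor do they tell whether replicates are separate mice, separate cultures or neither, so that p-values measure the spread between these samples, which may be technical.

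TSA blocks the zinc-dependent histone deacetylases (HDACs), enzymes that take acetyl groups off histone tails and off many other proteins. Histone acetylation marks active promoters and enhancers, and HDACs sit in corepressor complexes that help to keep genes silent, yet inhibitors of these enzymes are known to lower many genes as well as to raise others. Dendritic cells take up antigen, present it to T cells and, when activated, make interleukin 12, costimulatory ligands and chemokines.

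Arrays of 1 group were close to each other. Across genes, which are not independent replicates, r ran from 0.9971 to 0.9978 among untreated and from 0.9979 to 0.9985 among TSA arrays, against 0.9739 to 0.9764 between the groups. The median SD of a gene over 3 arrays was 0.079 in untreated and 0.066 in TSA cells. For beta-actin, the excess of the 3′ over the 5′ probe sets, which grows as RNA degrades, was 0.422, 0.372 and 0.503 in untreated and 0.594, 0.655 and 0.674 in TSA arrays, so these groups did not overlap. For Gapdh the same excess was 0.174, 0.146 and 0.159 in untreated and 0.208, 0.204 and 0.163 in TSA arrays, and these groups overlapped. The part of RNA quality in the results was not tested. Hybridization spike-ins averaged 10.306 to 10.45 on untreated and 10.36 to 10.414 on TSA arrays, whereas poly-A spike-ins spread more widely, from 8.365 to 8.978 and from 8.537 to 8.833. Counts on a scale that equalises the poly-A spike-ins are given as "on the poly-A scale" where they differ from the main count by more than 1.5 times.

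TSA shifted a large share of the transcriptome by small amounts and a small share by large amounts. Of the 12393 genes, 5866 (47.3%) were called by limma at an adjusted p under 0.05: 3262 rose (26.3%) and 2604 fell (21.0%). The median change was 0.41 among genes that rose and −0.48 among genes that fell, beside 0.032 over all genes. On the poly-A scale 1214 genes were called higher and 1283 lower. A change of at least 2-fold was reached by 265 rises (2.14% of genes) and 406 falls (3.28%). At 4-fold the counts were 18 rises and 58 falls, and at 8-fold 2 rises and 9 falls. The TSA and untreated arrays did not overlap in 54.9% of all genes and in 98.4% of the called genes, which the difference itself had selected. At the other end, the 95% interval of the change lay within 0.25 of 0 for 3453 genes (27.9%).

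**Figure D1:**
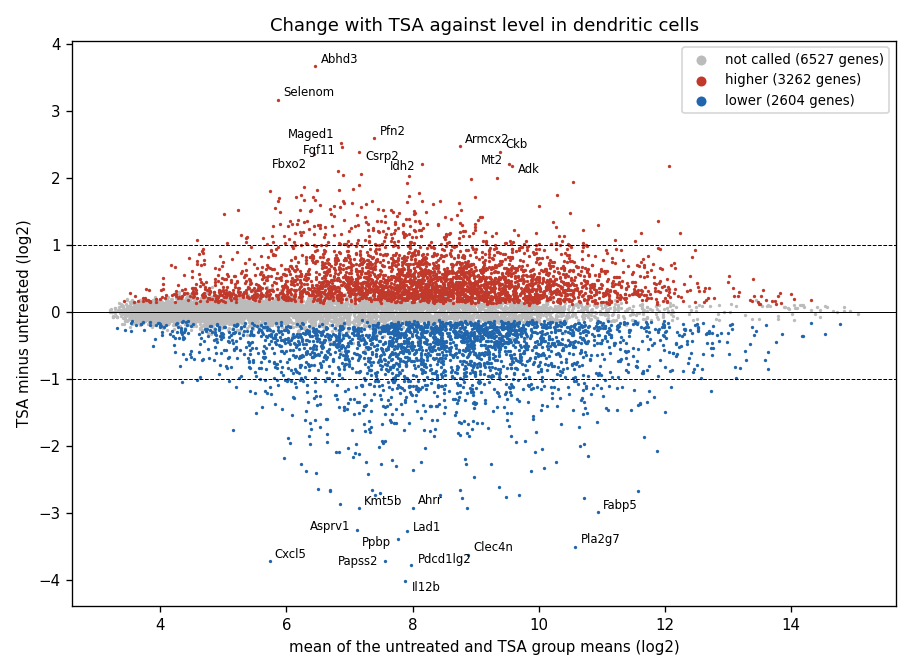
Change with TSA (vertical axis, log2) against the mean of the untreated and TSA group means (horizontal axis, log2) for each of the 12393 genes, with genes called higher in red, called lower in blue and not called in grey, and dashed lines at 2-fold. Rises past 2-fold are about as many as falls from 5 to 7 (84 and 77) and fewer than falls above 7, where the falls reach down to −4.0 at Il12b.

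Large changes were found at all levels above the floor of the arrays. The level was taken as the mean of the untreated and TSA group means, since the untreated mean is itself a term of the change and would place falls at high and rises at low levels by construction. Among the 3437 genes from 5 to 7 on this mean, 84 rose and 77 fell at least 2-fold. From 7 to 9 the counts were 132 and 201 of 3597 genes, from 9 to 11 they were 42 and 104 of 2193, and above 11 they were 6 and 22 of 580. By the mean over all 9 arrays, falls outnumbered rises from 5 to 7 as well, at 104 against 67. Below 5, where RMA values approach a floor and folds understate the change in RNA, 1 of 2586 genes rose and 2 fell past 2-fold by the mean of both groups.

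The genes with the largest changes were taken from called genes whose untreated and TSA arrays do not overlap, so their separation is a condition of the choice. The deepest falls included several genes known from immune cells. Il12b, the p40 subunit shared by interleukins 12 and 23, read 9.95, 9.89 and 9.80 in untreated and 5.86, 6.01 and 5.76 in TSA arrays. The groups lay far apart, and the change of −4.0 ± 0.087 (limma SE, n = 3 arrays a group, as for every change here) had an adjusted p of 1.07e-09. Pdcd1lg2, the inhibitory T cell ligand PD-L2, read 9.86, 9.88 and 9.83 in untreated and 6.34, 5.88 and 6.06 in TSA arrays, a change of −3.76 ± 0.118. Its untreated arrays were nearly equal, while TSA replicate 1 was the highest of the treated arrays. Cxcl5 and Ppbp encode chemokines that attract neutrophils. Cxcl5 went from 7.57, 7.63 and 7.58 to 4.0, 3.78 and 3.87, close to the floor, and Ppbp from 9.44, 9.50 and 9.43 to 6.18, 6.09 and 5.95. Clec4n (dectin-2), a receptor for fungal mannans, went from 10.67, 10.69 and 10.72 to 7.34, 6.93 and 6.96. In all of these but Cxcl5 the TSA arrays stayed above 5.

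Other large falls were found in genes of various roles. Papss2, which makes the sulfate donor of the cell, went from 9.51, 9.42 and 9.33 to 5.90, 5.64 and 5.58, or −3.71 ± 0.093. Pla2g7, the secreted phospholipase that breaks down platelet-activating factor, was among the brightest of the falls, from 12.36, 12.37 and 12.26 to 9.05, 8.73 and 8.72 (−3.50 ± 0.092). The fatty acid carrier Fabp5 went from 12.45, 12.41 and 12.44 to 9.55, 9.42 and 9.38 (−2.99 ± 0.055). In each of these 3 genes TSA replicate 1 lay above the other treated arrays, by far less than the change itself. Kmt5b, a histone H4 methyltransferase, went from 8.69, 8.78 and 8.38 to 5.78, 5.79 and 5.52. Ahrr, the repressor of the aryl hydrocarbon receptor, went from 9.47, 9.46 and 9.44 to 6.82, 6.51 and 6.30. TSA replicate 3 was the lowest treated array of both. Lad1, a basement membrane anchoring protein in skin, and Asprv1, a skin aspartic protease, had changes of −3.27 ± 0.128 and −3.25 ± 0.130.

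Abhd3 and Selenom had the largest rises, both from low levels. Abhd3, a phospholipase that acts on phosphatidylcholines, read 5.0, 4.48 and 4.40 in untreated and 8.28, 8.26 and 8.34 in TSA arrays (3.67 ± 0.146, adjusted p = 2.66e-08 by limma). Selenom, a selenoprotein of the endoplasmic reticulum, read 4.03, 4.46 and 4.38 against 7.47, 7.46 and 7.45 (3.17 ± 0.113). In both genes the untreated arrays scattered more than the TSA arrays, and near the floor the fold is a low estimate. Pfn2, a profilin that is best known in neurons, went from 6.14, 6.20 and 5.94 to 8.67, 8.70 and 8.72. Maged1, an adaptor of the MAGE family, went from 5.53, 5.72 and 5.58 to 8.14, 8.11 and 8.13, and Armcx2, of a family of X-linked armadillo repeat genes, from 7.64, 7.40 and 7.49 to 9.93, 9.97 and 10.06. The treated arrays of Pfn2 and Maged1 agreed to within a few hundredths.

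The other large rises were in genes of various roles. Ckb, the brain form of creatine kinase, went from 8.22, 8.22 and 8.15 to 10.57, 10.59 and 10.61 (2.39 ± 0.047), with arrays of each group nearly equal. Csrp2, a LIM protein that binds actin-associated partners, rose by 2.39 ± 0.082, Fbxo2, a ubiquitin ligase subunit that recognises sugar chains, by 2.35 ± 0.093, and Fgf11, a fibroblast growth factor that stays inside the cell, by 2.46 ± 0.114. Untreated replicate 3 of Fgf11, at 5.98, lay above the other untreated arrays (5.51 and 5.47), still far below the TSA arrays at 8.09 to 8.14. Idh2, the mitochondrial isocitrate dehydrogenase that makes NADPH, went from 6.88, 7.07 and 7.20 to 9.27, 9.23 and 9.29. Adk, which phosphorylates adenosine, went from 8.43, 8.57 and 8.45 to 10.62, 10.67 and 10.68. The metal-binding metallothionein Mt2 had the loosest untreated arrays of the 12 largest rises, at 8.30, 8.89 and 8.10, and read 10.66, 10.70 and 10.53 with TSA.

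**Figure D2:**
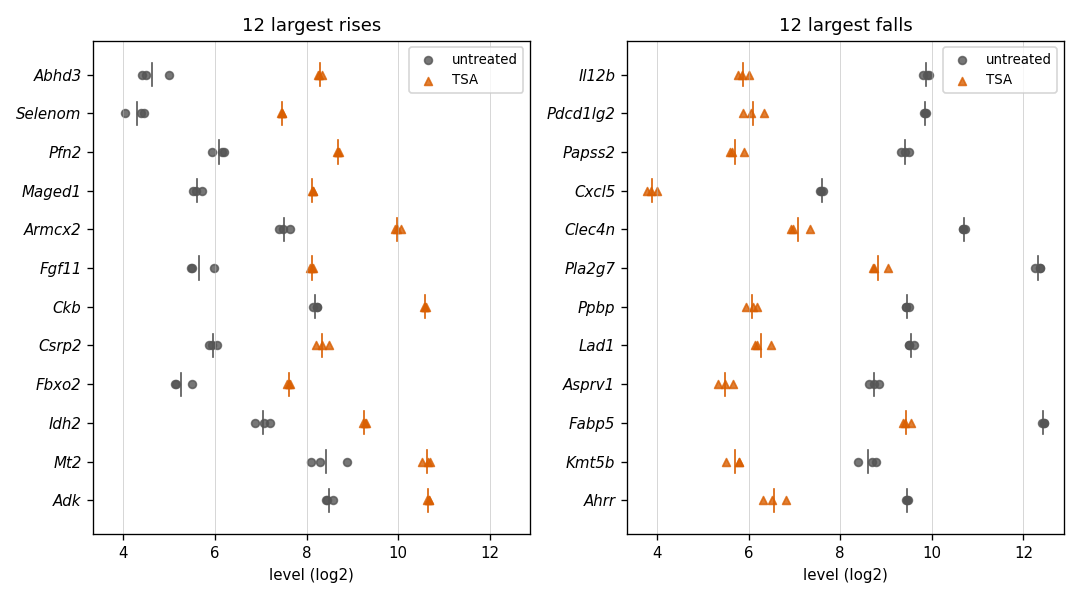
Level (log2) in each of the 3 untreated arrays (grey circles) and 3 TSA arrays (orange triangles) for the 12 largest rises and the 12 largest falls, with a vertical tick at each group mean. Genes were chosen without overlap between the groups, and Abhd3, Fgf11 and Mt2 show the widest untreated scatter.

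Among genes with a mean of at least 9 over the arrays, Ckb, Mt2 and Adk again had the largest rises, followed by genes of various roles. The linker histone H1f2 went from 11.04, 10.91 and 10.98 to 13.18, 13.15 and 13.12 (2.17 ± 0.050). Gsn (gelsolin), which severs actin filaments, went from 9.49, 9.62 and 9.62 to 11.51, 11.51 and 11.53, and the actin-binding calponin Cnn3 rose by 2.0 ± 0.047. Tceal9 and the lipid transfer gene Stard10 rose by 1.74 ± 0.054 and 1.72 ± 0.054. Each was again chosen among genes without overlapping arrays.

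The same rule gave 8 falls, of which Pla2g7 and Fabp5 were the largest. Clec4d, a partner of other C-type lectins, went from 11.98, 12.15 and 12.17 to 9.46, 9.27 and 9.26. Socs2, a feedback inhibitor of cytokine signalling, went from 11.05, 11.03 and 11.05 to 8.41, 8.25 and 8.30, and Ccl22, a chemokine that draws regulatory T cells, from 12.91, 12.90 and 12.92 to 10.34, 10.20 and 10.20. Their untreated arrays agreed to within a few hundredths for Socs2 and Ccl22. Gtf2a1, a subunit of the general transcription factor TFIIA, fell by 2.36 ± 0.065, from 11.09, 11.06 and 11.04 to 8.70, 8.68 and 8.72. The quinone reductase Nqo1 fell by 2.33 ± 0.069 and the NF-kB subunit Relb by 2.24 ± 0.049.

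Butyrate, a short-chain fatty acid that also inhibits HDACs, was compared with TSA for the same 24 largest changes. Both treatments use the same untreated arrays, so their changes are set side by side and only the direct TSA minus butyrate contrast was tested. That contrast called 35.9% of all genes and 12 of these 24. Of the 12 rises, 5 went further with TSA and 1 further with butyrate, and of the 12 falls 1 went further with TSA and 5 with butyrate. The genes were picked for their change on the same TSA arrays that enter this contrast, which favours larger changes with TSA, so these counts are a description. Abhd3 rose by 3.67 with TSA and by 2.48 with butyrate, a difference of 1.19 ± 0.146 (limma adjusted p = 2.14e-04). Pfn2 was 2.60 against 1.87 and Maged1 2.52 against 1.94, and both differences were called. Pla2g7 fell by 3.50 with TSA and by 4.90 with butyrate (difference 1.40 ± 0.092, limma adjusted p = 9.86e-06), and Clec4n and Ahrr also fell less with TSA, by 1.02 ± 0.101 and 0.96 ± 0.130. Asprv1 went the other way, at −3.25 with TSA and −2.02 with butyrate. Pdcd1lg2 was not called in this contrast (0.01 ± 0.118), nor were Selenom (0.27 ± 0.113) and Cxcl5 (0.12 ± 0.083).

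Many genes have further probe sets, which carry the same symbol and were read from the same RNA. They are a second measure of the gene, not a further sample. Of the 7987 further probe sets 40.1% were called, and of the 4471 that belong to called genes 58.6% were called in the direction of their gene and 41 in the opposite one. For genes past 2-fold, 362 of 446 further probe sets (81.2%) were called the same way and 0 the opposite way. This share went with brightness: it was 39.0% of 82 probe sets with a mean under 5, 82.3% of 175 from 5 to 7 and 98.4% of 189 from 7 up. A further probe set of Il12b changed by −3.60, those of Gtf2a1 by −2.11 and −2.29, those of Pfn2 by 3.42 and 1.38, and 3 bright ones of Gsn by 1.89, 1.97 and 1.95. The further probe sets of Papss2 were dimmer and changed by −1.01 and −1.34, with 1 at 0.10 that was not called. Those of Kmt5b gave −0.52, −2.43 and −0.46. In both genes the size of the fall thus depends on the probe set. The same holds for some of the largest rises. Further probe sets of Adk changed by 1.56, 0.71 and 0.17, the last not called, and those of Armcx2 by 2.21 and 0.80.

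A few genes had probe sets called in opposite directions, so that no direction can be given for the gene as a whole. Snrpd3, a core splicing protein, was 0.59 higher on the probe set that represents it and 0.95 lower on another (−0.95), with the remaining probe set at 0.26. The rise of Snrpd3 also lost its call without untreated replicate 2 or 3 and without TSA replicate 1 or 3. Ints6 of the Integrator complex gave −0.41 and 0.78, Wdr20 −0.34 and 0.82, Mdp1 −0.56, 0.48 and −0.54, and Fem1b 0.37 and −0.34. Which transcript parts these probe sets read was not analysed here. Another 2246 probe sets carry several symbols or no name. Of them 403 were called higher and 361 lower, 19 and 44 past 2-fold.

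Gene groups are described below by how many tested members were called each way and by their median change, which stand beside 26.3% higher, 21.0% lower and 0.032 over all genes. Counts on the poly-A scale stand beside 1214 higher and 1283 lower of all 12393 genes. Fewer calls in a list on that scale therefore go with fewer calls over all genes. The lists and their members were chosen with earlier results of these data known, so their counts are a description and no test. Of 57 lists, 28 had more members called higher, 27 more called lower and 2 as many of each.

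**Figure D3:**
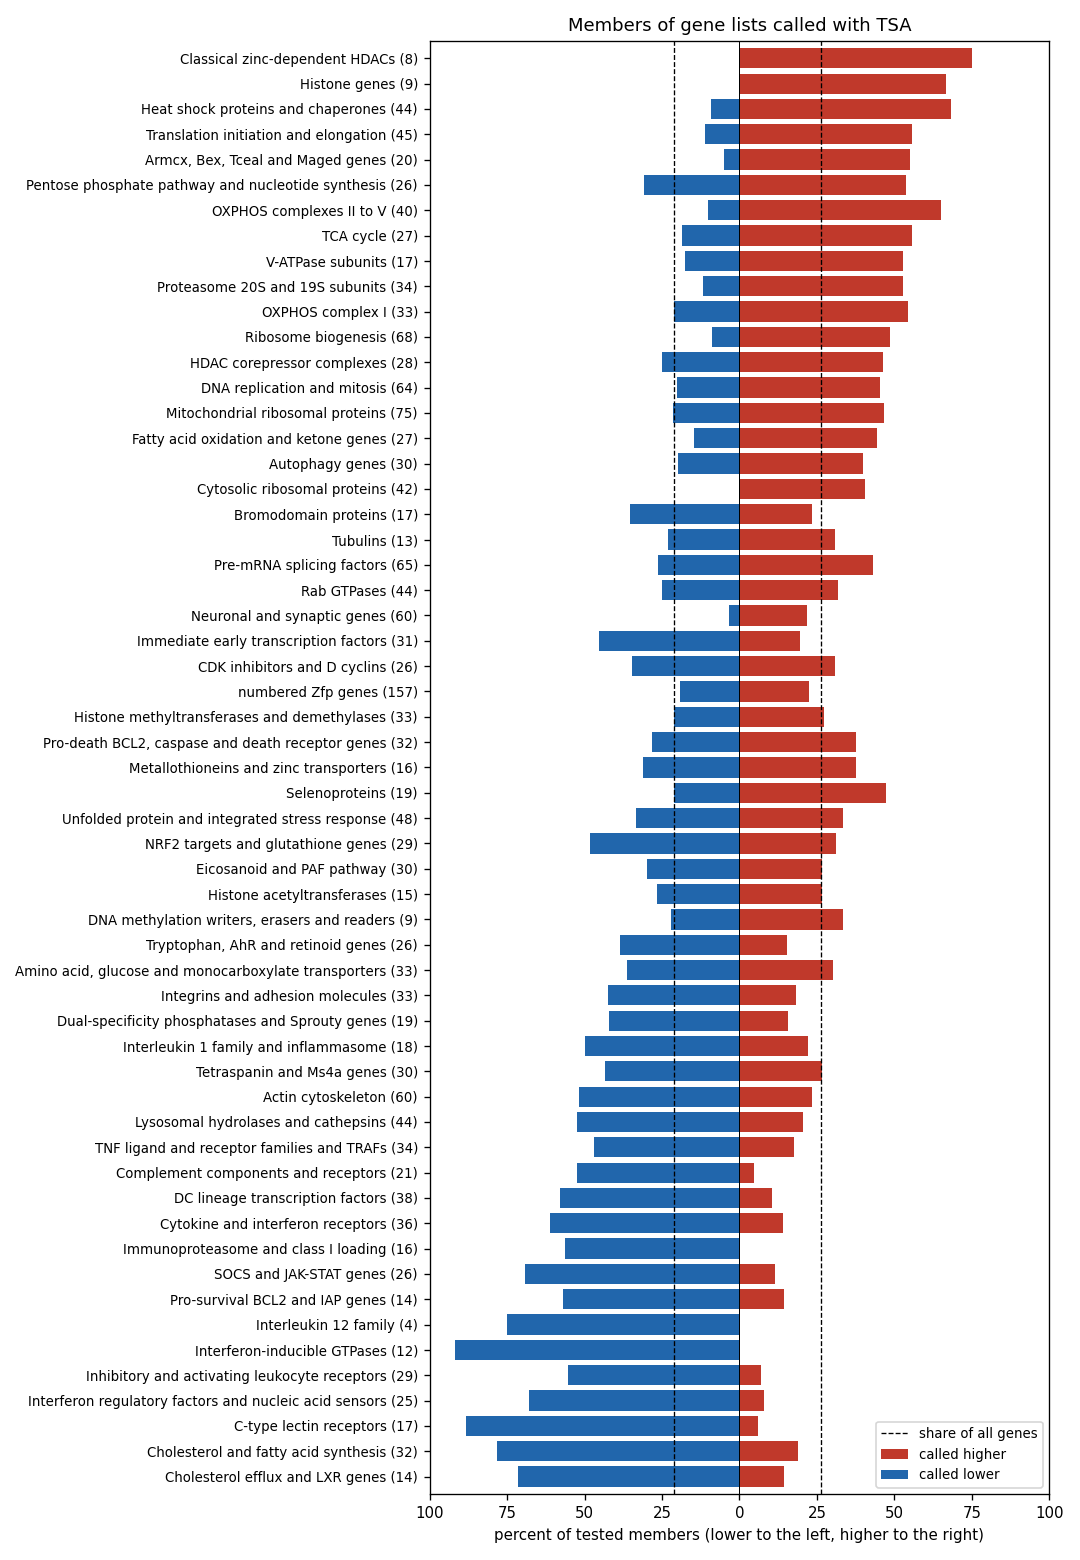
Percent of the tested members of each of 57 gene lists that were called lower (blue, to the left) or higher (red, to the right) with TSA, ordered by median change, with the number tested in brackets and dashed lines at the share over all genes (21.0% lower, 26.3% higher). Lists of HDACs, histones, chaperones, translation factors and respiratory subunits stand near the upper end, and lists of sterol, lectin, interferon and receptor genes near the lower end.

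The targets of TSA and their partners rose more often than they fell. Of 8 measured genes of zinc-dependent HDACs 6 rose and 0 fell (median 0.45), or 3 rose on the poly-A scale. Hdac6, the cytoplasmic tubulin deacetylase, went from 7.33, 7.46 and 7.53 to 8.48, 8.54 and 8.46, and the nuclear Hdac1 from 10.02, 10.09 and 10.06 to 10.89, 10.83 and 10.98. These arrays did not overlap, while Hdac7, at 0.03 ± 0.057, was not called. Of 28 corepressor genes 13 rose and 7 fell (median 0.18), or 3 and 2 on the poly-A scale. Sap30 of the SIN3 complex rose by 0.74 ± 0.051, whereas Mbd3 and Mta3 of the NuRD complex fell by 1.01 and 0.78 on the log2 scale. The bright histone chaperone subunit Rbbp7 was not called (−0.02 ± 0.050).

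Other chromatin regulators did not move 1 way. Of 33 histone methyltransferases and demethylases 9 rose and 7 fell (median 0.02), or 3 and 3 on the poly-A scale. Their main shares were close to those of all genes. Beside the fall of Kmt5b, the H3 demethylase Kdm5b rose by 1.11 ± 0.091 and the arginine methyltransferase Prmt5 by 0.77 ± 0.060. Acetyltransferases gave 4 higher and 4 lower of 15 (2 higher on the hybridization spike-in scale, 0 higher and 2 lower on the poly-A scale), with the coactivator Ncoa3 at −0.55 ± 0.049. Their 26.7% each way stand beside 26.3% higher and 21.0% lower over all genes. Of 17 bromodomain proteins, which read acetylated lysines, 4 rose and 6 fell, or 0 and 4 on the poly-A scale. Pbrm1 of the PBAF remodeller fell by 0.75 ± 0.048, and Brd2 was not called (0.17 ± 0.120). Of 9 genes that write, erase or read DNA methylation 3 rose and 2 fell (median −0.07), or 1 and 1 on the poly-A scale. Mbd4, a repair enzyme that binds methylated DNA, rose by 0.85 ± 0.130, the maintenance enzyme Dnmt1 by 0.46 ± 0.054 and the de novo enzyme Dnmt3b by 0.38 ± 0.066, whereas the other de novo enzyme Dnmt3a went from 8.92, 9.0 and 8.95 to 8.06, 8.03 and 7.86. Of 9 histone genes 6 rose and 0 fell (median 0.43), or 3 rose on the poly-A scale. The variant H2az2 rose by 0.98 ± 0.045 while its close relative H2az1 stayed within its error (0.00 ± 0.042, not called).

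Of genes better known from brain and other tissues a part rose. Of 20 Armcx, Bex, Tceal and Maged genes 11 rose, 7 of them at least 2-fold, and 1 fell (median 0.27), with 0 falls on the poly-A scale. Magee1 rose by 1.84 ± 0.081 beside Maged1, Armcx2 and Tceal9, whereas Bex6, named after its value was seen, fell by 0.47. Tceal1 and Magel2 were not called (0.02 ± 0.087 and −0.12 ± 0.118). Of 60 neuronal and synaptic genes 13 rose, 2 fell and 45 were not called (median 0.06), which is a smaller share than over all genes, and 7 rose on the poly-A scale. The synaptotagmin Syt11 went from 6.18, 6.26 and 6.23 to 7.89, 7.89 and 7.77, and Aplp1, a relative of the amyloid precursor, and the adhesion molecule Nlgn2 rose by 1.28 ± 0.107 and 1.14 ± 0.144. A dimmer probe set of Aplp1 was not called (0.15). Of 157 numbered zinc finger (Zfp) genes 35 rose and 30 fell, or 12 and 15 on the poly-A scale, a split close to that of all genes. Zfp52 fell by 1.39 ± 0.068.

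Mitochondrial genes rose more often than they fell. Of 33 measured subunits of respiratory complex I 18 rose and 7 fell (median 0.20), or 8 and 1 on the poly-A scale, and of 40 subunits of complexes II to V 26 rose and 4 fell (median 0.24), or 7 and 1. Cox5a of cytochrome oxidase rose by 0.92 ± 0.044 and Ndufv3 by 0.97 ± 0.044. Ndufs8, an iron-sulfur subunit of complex I, fell by 1.11 ± 0.062, with 4 of its 5 further probe sets between −0.91 and −1.05 and 1 at −0.02. Of 75 mitochondrial ribosomal proteins 35 rose and 16 fell, or 16 and 7 on the poly-A scale. Mrpl54 went from 9.19, 9.27 and 9.32 to 7.44, 7.44 and 7.38, while Mrpl13 rose by 1.18 ± 0.047.

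In 3 lists of carbon and nucleotide metabolism more genes rose than fell. In the TCA cycle list 15 of 27 genes rose and 5 fell (median 0.22), or 9 and 4 on the poly-A scale. Idh2 led the rises and the cytosolic malate dehydrogenase Mdh1 rose by 1.36 ± 0.079, whereas the NADPH-making malic enzyme Me1 went from 8.31, 8.21 and 8.12 to 6.35, 6.57 and 6.38. Of 27 genes of fatty acid oxidation and ketone use 12 rose and 4 fell, or 8 and 0 on the poly-A scale, led by Hadh, which oxidises hydroxyacyl-CoA, from 6.84, 7.04 and 6.96 to 8.85, 8.80 and 8.96. Nucleotide and pentose phosphate genes rose in 14 and fell in 8 of 26 cases (median 0.24), with 5 falls on the hybridization spike-in scale and 6 rises and 1 fall on the poly-A scale. The purine enzyme Paics went from 10.31, 10.25 and 10.31 to 11.55, 11.55 and 11.66, and the CTP synthase Ctps2 fell by 1.05 ± 0.073, without a call on its dim further probe set (0.02).

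Genes of lipid synthesis and of cholesterol efflux fell in most cases. Of 32 genes of cholesterol and fatty acid synthesis 25 fell, 7 of them at least 2-fold, and 6 rose (median −0.72), or 20 and 3 on the poly-A scale. Lss, which closes the sterol rings, went from 9.04, 9.05 and 9.20 to 7.81, 7.74 and 7.65, and Idi1 and the fatty acid desaturase Fads2 fell by 1.36 ± 0.044 and 1.19 ± 0.200. The elongase Elovl5 and the sterol sensor Insig2, named after their values were seen, rose by 0.85 and 0.61. Scap, which escorts the sterol-responsive factors, was not called (−0.06 ± 0.058). Of 14 genes of cholesterol efflux and the oxysterol receptor LXR 10 fell, 5 at least 2-fold, and 2 rose (median −0.92), with 1 rise on the poly-A scale. Mylip, which degrades the LDL receptor, went from 11.50, 11.55 and 11.44 to 9.83, 9.79 and 9.73, and the lipoprotein Apoe fell by 1.21 ± 0.058. Genes for making sterol and genes for exporting it, which opposite signals are known to induce, both had medians below 0.

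Of the stress genes, chaperones rose more often than they fell, and the unfolded protein list was even. The difference between them was not tested. Heat shock proteins and chaperones rose in 30 of 44 cases and fell in 4 (median 0.32), or 12 and 2 on the poly-A scale. Hspa2, an HSP70 best known from testis, went from 6.11, 6.32 and 6.01 to 8.19, 8.18 and 8.23, and the HSP90 cochaperone Fkbp4 rose by 1.19 ± 0.060. Of 48 genes of the unfolded protein and integrated stress response 16 rose and 16 fell, or 6 and 8 on the poly-A scale, with the kinase Eif2ak4 at 1.35 ± 0.052 and the factors Atf5 and Cebpb at −1.17 ± 0.090 and −1.12 ± 0.060. The chaperones Calr and Canx were not called (0.07 and −0.02).

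Antioxidant and metal genes held rises and falls. Of 29 NRF2 targets and glutathione genes 9 rose and 14 fell, or 4 and 9 on the poly-A scale. Slc7a11, which imports cystine, went from 10.01, 10.05 and 10.16 to 7.58, 7.31 and 7.40, next to the fall of Nqo1, while the glutathione transferase Gsta4 rose by 1.56 ± 0.106. The iron store Fth1 was not called (0.01 ± 0.043). Metallothionein Mt1 went from 9.69, 9.77 and 9.79 to 11.32, 11.23 and 11.13, next to Mt2, and the zinc importer Slc39a4 fell by 1.85 ± 0.084. Of the 16 genes of that list 6 rose and 5 fell, or 4 and 3 on the poly-A scale and 3 lower without TSA replicate 3. Among 19 selenoproteins 9 rose and 4 fell, or 5 and 1 on the poly-A scale. Selenoh rose by 1.04 ± 0.049 and the mitochondrial thioredoxin reductase Txnrd2 fell by 0.76 ± 0.075.

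Constitutive proteasome subunits rose more often than they fell, and of immunoproteasome genes some fell and 0 rose, a contrast that was not itself tested. Of 34 subunits of the 20S and 19S particles 18 rose and 4 fell (median 0.20), or 3 and 0 on the poly-A scale, with Psma6 at 0.74 ± 0.041 and Psmd5 at 0.96 ± 0.062. Of 16 genes of the immunoproteasome and of class I peptide loading 0 rose and 9 fell (median −0.30), or 5 on the poly-A scale. Tapbpl, a peptide editor, went from 9.64, 9.70 and 9.68 to 7.94, 7.87 and 7.71, and the catalytic subunit Psmb10 fell by 1.59 ± 0.060. The class I heavy chain H2-D1 was not called (−0.06 ± 0.044).

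Lysosomal enzymes fell more often than the pump that acidifies them. Of 44 lysosomal hydrolases and cathepsins 23 fell and 9 rose (median −0.19), or 12 and 6 on the poly-A scale. The phosphatase Acp5 and the glucuronidase Gusb fell by 1.41 ± 0.091 and 1.02 ± 0.051, and the palmitoyl thioesterase Ppt1 rose by 1.43 ± 0.067. Of 17 V-ATPase subunits 9 rose and 3 fell, or 1 and 3 on the poly-A scale. The difference between these lists was not tested. Atp6v1f fell by 0.90 ± 0.047 and Atp6v0b by 0.79 ± 0.049. Of 30 autophagy genes 12 rose and 6 fell, or 3 and 0 on the poly-A scale, with the phosphoinositide binder Wipi1 at 1.16 ± 0.064, although 1 of its 4 further probe sets was not called (0.09).

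In 4 lists of protein synthesis and RNA splicing more genes rose than fell, apart from the ribosomal proteins on the poly-A scale. Of 42 cytosolic ribosomal proteins 17 rose and 0 fell, with a median of 0.11 and no change beyond 0.38. This count is unsteady: 11 rose without untreated replicate 2 or without TSA replicate 2, 6 on the hybridization spike-in scale, 0 on the poly-A scale and 31 with a prior that follows intensity. Rpl6 went up by 0.29 ± 0.045 and Rps29 was not called (0.00 ± 0.043). Of 68 ribosome biogenesis genes 33 rose and 6 fell (median 0.19), or 10 and 1 on the poly-A scale and 3 lower without untreated replicate 3 or without TSA replicate 2. Nop10, of the pseudouridylation complexes, rose by 0.91 ± 0.056, and nucleolin (Ncl) was not called (0.02 ± 0.049). Of 45 translation factors 25 rose and 5 fell (median 0.29), or 10 and 2 on the poly-A scale, with the cap-binding Eif4e3 at 1.17 ± 0.067. Of 65 splicing factors 28 rose and 17 fell, or 8 and 6 on the poly-A scale, with Prpf19 at 0.89 ± 0.053 and Srsf6 at −0.85 ± 0.046.

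Cell cycle genes included rises in replication and a mixed set of inhibitors. Of 64 replication and mitosis genes 29 rose and 13 fell (median 0.16), or 13 and 1 on the poly-A scale. Rpa1, which coats single-stranded DNA, rose by 1.01 ± 0.058 and the helicase subunit Mcm6 by 0.88 ± 0.053, and the mitotic Birc5 was not called (−0.01 ± 0.061). Of 26 CDK inhibitors and D cyclins with their partners 8 rose and 9 fell, or 4 and 5 on the poly-A scale. Cdkn2b (p15) went from 9.15, 9.21 and 9.18 to 6.82, 6.84 and 6.82. Cdkn1a (p21), which HDAC inhibitors raise in many cell lines, went from 12.30, 12.35 and 12.43 to 11.81, 11.80 and 11.70, a fall of −0.59 ± 0.052 without overlap (limma adjusted p = 5.41e-06). The kinase Cdk4 rose from 7.98, 8.25 and 8.25 to 9.37, 9.36 and 9.34, and the inhibitor Cdkn1c by 0.81 ± 0.130.

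Genes that guard against cell death fell more often than genes that promote it, though the lists were not tested against each other. Of 14 pro-survival genes 8 fell and 2 rose (median −0.36), with 1 rise on the poly-A scale, without untreated replicate 2 or without TSA replicate 3. Cflar (c-FLIP), which blocks caspase activation at death receptors, went from 10.09, 9.98 and 10.13 to 8.43, 8.29 and 8.29, and its further probe sets changed by −1.48, −0.98 and −1.44. Bcl2l1 (Bcl-xL) fell by 0.84 ± 0.057. Of 32 pro-death genes 12 rose and 9 fell (median 0.02), or 6 and 4 on the poly-A scale. Casp6 went from 7.52, 7.70 and 7.34 to 9.27, 9.04 and 9.09, while the pore-forming Bak1 fell by 1.11 ± 0.050.

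Cytoskeletal genes held both large rises and many falls. Of 60 actin genes 31 fell and 14 rose (median −0.18), or 16 and 9 on the poly-A scale, and the 4 largest changes (Pfn2, Csrp2, Cnn3 and Gsn) were all rises. The abundant Tmsb4x was not called (−0.03 ± 0.042). Among 13 tubulins 4 rose and 3 fell, or 2 and 1 on the poly-A scale, with the bright Tuba1a at −1.34 ± 0.047 and Tubb2b, best known from neurons, at 1.05 ± 0.097. Of 44 Rab GTPases 14 rose and 11 fell, or 6 and 6 on the poly-A scale. Rab11b of recycling endosomes fell by 1.37 ± 0.048 and Rab34 rose by 1.30 ± 0.090.

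In 5 lists of signalling genes more members fell than rose. Of 26 SOCS and JAK-STAT genes 18 fell and 3 rose (median −0.34), or 8 and 0 on the poly-A scale, and beside Socs2 the phosphatase Ptpn2 fell by 0.92 ± 0.049 and Stat4 by 0.91 ± 0.055. Of 36 cytokine and interferon receptors 22 fell and 5 rose (median −0.29), or 14 and 3 on the poly-A scale. Il7r went from 10.60, 10.76 and 10.68 to 8.15, 8.06 and 7.99, with a further probe set at −2.69. The GM-CSF receptor chain Csf2ra, known for its part in growing dendritic cells, went from 10.49, 10.65 and 10.68 to 8.71, 8.63 and 8.68. Of 34 genes of the TNF families 16 fell and 6 rose (median −0.21), with 3 rises on the hybridization spike-in scale, without TSA replicate 1 or without TSA replicate 2, and 1 on the poly-A scale. Ltb (lymphotoxin beta) fell by 1.61 ± 0.056. Immediate early factors fell in 14 and rose in 6 of 31 cases although their median was 0.05, or 8 and 3 on the poly-A scale. Klf6 fell by 1.44 ± 0.068 and Mafk was not called (0.06 ± 0.057). Of 19 DUSP and Sprouty genes 8 fell and 3 rose, or 4 and 2 on the poly-A scale, with Spred1 at −1.36 ± 0.090 and its relative Spred2 at 1.17 ± 0.053, though a dimmer probe set of Spred2 was not called (−0.06).

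Of the innate sensing and interferon genes more fell than rose. Of 25 interferon regulatory factors and nucleic acid sensors 17 fell and 2 rose (median −0.61), with 1 rise on the poly-A scale, and 6 were not called. Adar, which edits double-stranded RNA, went from 8.50, 8.56 and 8.35 to 6.84, 6.66 and 7.02, and Irf7 fell by 1.40 ± 0.097. Mavs, the mitochondrial adaptor of the RNA sensors, went the other way, from 7.28, 7.02 and 7.43 to 8.60, 8.61 and 8.69. Irf8 and Tbk1 were not called, both at −0.10. Of 12 interferon-inducible GTPases 11 fell and 0 rose (median −0.45), or 4 on the poly-A scale. Gbp2 went from 10.07, 9.95 and 9.90 to 7.93, 7.69 and 7.50 and Gbp3 from 9.19, 9.24 and 9.21 to 7.53, 7.56 and 7.36. Igtp was not called (0.01 ± 0.083), so the family did not fall in full.

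In 5 lists of surface receptors and complement genes more members fell than rose. Of 17 C-type lectin receptors 15 fell and 1 rose (median −0.69). Clec4a2 fell by 1.77 ± 0.165, next to Clec4n and Clec4d, and the exception Clec2i, named after its value was seen, rose by 1.02. Of 29 inhibitory and activating leukocyte receptors 16 fell and 2 rose (median −0.59), with 4 rises without untreated replicate 2 and 1 on the poly-A scale. Lair1, a receptor for collagen, went from 8.62, 8.61 and 8.34 to 6.71, 6.63 and 6.47, whereas the signal chain Fcer1g was not called (0.03 ± 0.053). Of 21 complement genes 11 fell and 1 rose, or 5 falls on the poly-A scale, with 2 rises without untreated replicate 1, and the anaphylatoxin receptor C3ar1 fell by 1.23 ± 0.073. Of 33 integrins and adhesion molecules 14 fell and 6 rose, or 9 and 3 on the poly-A scale. Itga6 rose by 1.43 ± 0.094 and Vcam1 fell by 1.26 ± 0.090. Of 30 tetraspanin and Ms4a genes 13 fell and 8 rose. Ms4a7 fell by 2.27 ± 0.112 and Cd9 was not called (0.03 ± 0.043).

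Genes of mediator pathways held falls and rises. Of 18 genes of the interleukin 1 family and inflammasome 9 fell and 4 rose, with 2 rises on the poly-A scale. The antagonist Il1rn fell by 1.59 ± 0.091, and Txnip, which binds thioredoxin, went from 9.24, 9.23 and 9.17 to 10.88, 10.78 and 10.73. Casp1 was not called (0.02 ± 0.055). Of 4 measured subunits of the interleukin 12 family Il12b fell the most, and Il23a was not called (0.17 ± 0.086), although it was without untreated replicate 3. The falls of Ebi3 (−0.39 ± 0.079) and Il12a (−0.35 ± 0.109) lost their call on the poly-A scale, and that of Il12a also without untreated replicate 2 or 3 and without TSA replicate 2 or 3. Of 30 eicosanoid genes 9 fell and 8 rose, or 4 and 4 on the poly-A scale, led by Pla2g7. Over all genes 21.0% fell and 26.3% rose, against 30.0% and 26.7% of the eicosanoid list. The prostaglandin E receptor Ptger4 fell by 1.14 ± 0.046 and Lta4h, which makes leukotriene B4, rose by 0.81 ± 0.046. In the list of tryptophan, aryl hydrocarbon receptor and retinoid genes 10 of 26 fell and 4 rose, with 1 rise on the poly-A scale. Ido1, which degrades tryptophan, went from 8.70, 8.72 and 8.63 to 6.35, 5.97 and 5.78, next to Ahrr and the kynurenine enzyme Kmo (−1.48 ± 0.077).

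Nutrient transporters split, with 12 of 33 lower and 10 higher, or 10 and 4 on the poly-A scale. Beside Slc7a11, the phagosomal metal exporter Slc11a1 fell by 1.85 ± 0.052 and the iron exporter Slc40a1 by 1.66 ± 0.071, while the glucose transporter Slc2a3 rose by 1.41 ± 0.058. The amino acid exchanger Slc7a5 was not called (−0.08 ± 0.055).

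Transcription factors of the dendritic lineage fell in 22 of 38 cases and rose in 4 (median −0.24), or 10 and 1 on the poly-A scale. Etv3 went from 12.78, 12.68 and 12.76 to 11.30, 11.16 and 11.28. Zeb2, which specifies plasmacytoid and CD11b-type cells, went from 10.27, 10.08 and 9.65 to 8.78, 8.70 and 8.11. Replicate 3 was the lowest array of Zeb2 in both groups, and the groups still did not overlap (−1.47 ± 0.200). Irf8, the defining factor of CD8-type cells, read 11.59, 11.72 and 11.78 in untreated and 11.57, 11.63 and 11.59 in TSA arrays, which overlap (−0.10 ± 0.056, but called at −0.15 without untreated replicate 1), and Spib was not called (0.01 ± 0.061).

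The cells carried the defining markers of dendritic cells in both groups, and several of these fell. Of 9 such markers 6 fell and 0 rose (median −0.58), and their mean level was 11.79 to 11.87 in untreated and 11.25 to 11.30 in TSA arrays. Itgax (CD11c), the target of the bead selection, went from 9.12, 9.30 and 9.31 to 8.28, 8.27 and 8.21. Flt3, the receptor of Flt3L, went from 10.98, 11.03 and 11.05 to 10.43, 10.40 and 10.46. The class II genes H2-Aa and H2-Eb1 were not called (0.02 ± 0.041 and 0.03 ± 0.044), with H2-Aa at 14.63, 14.67 and 14.65 against 14.67, 14.66 and 14.68, near the top of the scale. In bulk samples fewer cells of a type and less RNA per cell cannot be told apart.

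Each list of subset markers held falls, and differences between the lists were not tested. Of 9 CD11b-type markers 7 fell and 1 rose (median −0.37), or 4 and 0 on the poly-A scale, of 7 plasmacytoid markers 6 fell (median −0.69), and of 9 CD8-type markers 4 fell and 1 rose (median −0.10). The single CD8-type rise was lost on the poly-A scale, without untreated replicate 1 or 3 or without TSA replicate 1 or 2, and 2 rose without untreated replicate 2. Ccr9, a homing receptor of plasmacytoid cells, fell by 1.53 ± 0.055, and their factor Tcf4 was not called (0.00 ± 0.046 in size). Sirpa of CD11b-type cells fell by 1.10 ± 0.054, and their factor Irf4 was not called (0.00 ± 0.053 in size). Cd8a fell by 0.93 ± 0.082 and Cadm1 was not called (−0.02 ± 0.056).

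Markers of other cells that CD11c beads can retain fell beside the immune gene groups above. Macrophage and monocyte markers fell in 13 of 13 cases (median −0.62), with a mean level of 8.72 to 8.85 in untreated and 7.79 to 7.88 in TSA arrays. Spic, the factor of red pulp macrophages, went from 9.70, 9.90 and 9.81 to 7.20, 7.05 and 6.97. Neutrophil markers fell in 7 of 10 cases (median −0.67, mean level 10.31 to 10.36 against 9.53 to 9.63). Camp went from 11.81, 11.89 and 11.84 to 9.81, 9.66 and 9.66, while the abundant S100a8 and S100a9 were not called (both −0.10). Of 9 B cell markers 5 fell (median −0.30, mean level 6.11 to 6.18 against 5.79 to 5.84), or 3 without untreated replicate 1, TSA replicate 2 or TSA replicate 3 and 2 on the poly-A scale. Their part in the falls of immune genes was not tested.

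Lymphoid, erythroid, platelet and tumour markers were mixed. T cell markers fell in 3 of 8 cases (mean level 6.54 to 6.60 against 6.30 to 6.38), or 1 on the poly-A scale, with 1 rise without untreated replicate 3. NK cell markers fell in 4 of 8 cases and 1 rose (mean level 6.51 to 6.52 against 6.25 to 6.33), with 2 falls on the poly-A scale and 2 rises without untreated replicate 3. Erythroid markers fell in 6 of 8 cases (mean level 8.85 to 8.94 against 8.67 to 8.70), or 2 on the poly-A scale. The band 3 gene Slc4a1 fell by 0.87 ± 0.052, whereas the carbonic anhydrase Car1 went from 7.67, 7.81 and 7.83 to 8.80, 8.79 and 8.87. Of 6 platelet markers Ppbp and Pf4 fell (−3.38 and −0.79) and 4 were not called, among them the platelet integrin Itga2b (0.01 ± 0.061), with mean levels of 7.35 to 7.42 against 6.71 to 6.80. A rise joined the platelet list without untreated replicate 1 or without TSA replicate 1. Melanoma markers had low mean levels in both groups, 5.45 to 5.54 and 5.35 to 5.48. Of 8 such markers Mitf, which myeloid cells also use, fell by 0.73 ± 0.077, and Pmel was not called (−0.10 ± 0.072). The small rise of Dct (0.28) lost its call on both spike-in scales, without untreated replicate 1 or 2 and without TSA replicate 2 or 3. The small fall of Tyr (−0.27) lost its call on the poly-A scale, without untreated replicate 1 and without each TSA replicate.

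**Figure D4:**
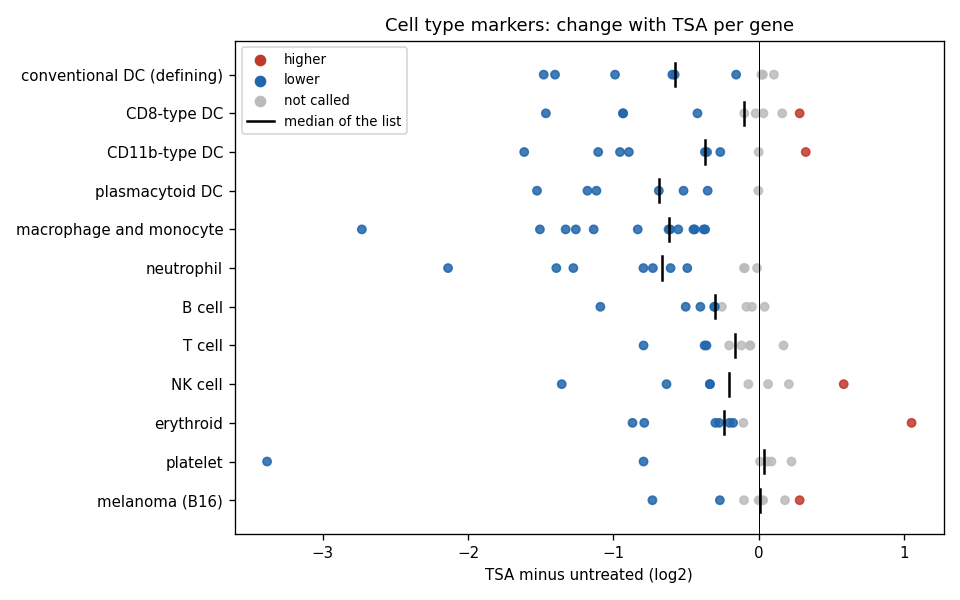
Change with TSA (horizontal axis, log2) of each tested marker gene in 12 cell type lists, with red points called higher, blue points called lower, grey points not called and a black tick at the median of the list. Macrophage and monocyte markers lie wholly below 0, while most platelet and melanoma markers sit near 0 and Ppbp stands alone at −3.38.

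Promoter sequences were set beside these changes. RefSeq windows of 300 bases, from 250 before to 50 after the annotated start (mouse GRCm38.p6), matched 9882 of the 12393 genes. Vertebrate promoters fall into a class rich in CpG dinucleotides, typical of broadly used genes, and a class poor in CpG, typical of tissue-specific genes. The measure used is the number of CpG observed over that expected from the C and G content, with a median of 0.69 over all matched genes. It was 0.73 for the 218 matched genes that rose at least 2-fold and 0.51 for the 317 that fell at least 2-fold. A ratio under 0.5 was found for 31.8% of all matched genes, 17.4% of those rises and 49.5% of those falls. Over all 2126 matched genes called lower, of any size of change, the median was 0.70 and 29.4% lay under 0.5, near the values of all matched genes. These values lay between those of the other matched genes. Of the 2688 called higher 13.7% lay under 0.5 (median 0.79), and of the 5068 not called 42.4% (median 0.59).

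CpG-poor genes are often dim on these arrays, so the shares were also taken within a range of untreated level. The untreated mean is a term of the change, so rises and falls in this range reach different TSA levels. Among genes with an untreated mean from 7 to 9, a ratio under 0.5 was found for 15.8% of all 2906 matched genes, 10.9% of 92 rises past 2-fold, 50.0% of 132 falls past 2-fold and 14.1% of genes not called. Over all levels, 0.678% of the 1475 genes in the lowest CpG class, under 0.25, rose and 5.42% fell at least 2-fold. In the class from 0.75 to 1, 2.81% of 3166 genes rose and 2.37% fell. These classes were not matched for level, with median untreated levels of 5.16 and 8.09.

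**Figure D5:**
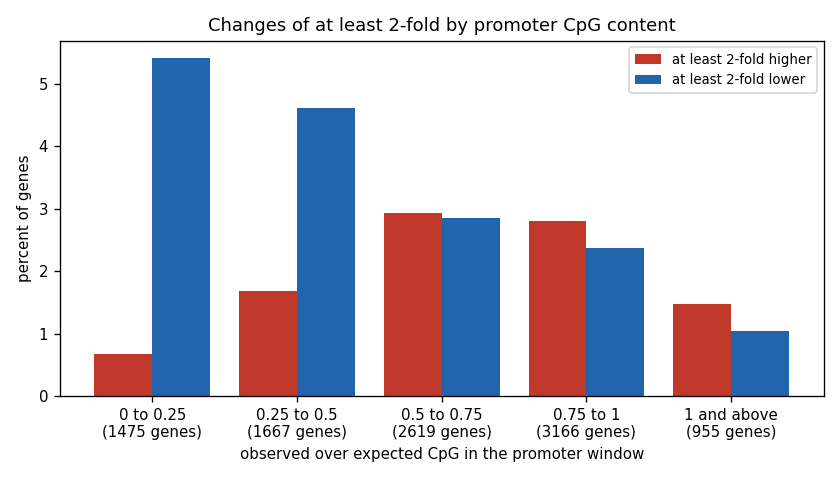
Percent of matched genes that rose (red) or fell (blue) at least 2-fold with TSA in 5 classes of observed over expected CpG in the promoter window, with the number of genes under each class. Falls outnumber rises in the 2 CpG-poor classes on the left, at 5.42% against 0.678% in the lowest.

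The 100 bases before the start are shown for a pair of falls with a low ratio and a pair of rises with a high one. The largest changes also included rises with a low ratio (Armcx2 at 0.26 and Fgf11 at 0.28) and falls with a high one (Kmt5b at 0.82, Pla2g7 at 0.79 and Lad1 at 0.69). The bases are printed in the direction of transcription, ending at the base before the start, with each CG in capitals. Il12b lies at chr11:44399963-44400062 on the plus strand and Pdcd1lg2 at chr19:29410819-29410918 on the plus strand, and these fell. Pfn2 lies at chr3:57847758-57847857 on the minus strand and Maged1 at chrX:94542026-94542125 on the minus strand, and these rose.
Il12b: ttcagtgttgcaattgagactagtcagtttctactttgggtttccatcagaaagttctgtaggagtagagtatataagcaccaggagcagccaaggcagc
Pdcd1lg2: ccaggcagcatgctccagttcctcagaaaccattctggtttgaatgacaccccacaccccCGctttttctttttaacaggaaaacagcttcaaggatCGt
Pfn2: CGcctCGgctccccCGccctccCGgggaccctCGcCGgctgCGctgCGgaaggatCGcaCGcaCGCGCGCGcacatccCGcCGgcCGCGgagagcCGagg
Maged1: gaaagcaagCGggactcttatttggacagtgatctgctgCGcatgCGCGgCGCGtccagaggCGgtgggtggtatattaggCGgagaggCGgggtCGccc
The stretch of Il12b holds 0 CG and that of Pdcd1lg2 holds 2, while those of Pfn2 and Maged1 hold 19 and 10. Over the full windows the ratio was 0.23 and 0.19 for the genes that fell and 1.03 and 0.81 for the genes that rose. These genes were chosen to show the classes and are no test of them.

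Short motifs were counted in the same windows on both strands. A gene with several windows counted as a match if any of them held the motif. The core of the interferon-stimulated response element, TTCNNTTTC, was present in 8.56% of all 32851 RefSeq windows and in 8.63% of the matched genes. It was present in 13.6% of the falls past 2-fold and 6.88% of such rises, in 85.7% of 7 matched interferon-inducible GTPases and in 30.0% of 20 matched interferon regulatory factors and sensors. The PU.1 core GAGGAAGT, bound by a factor of myeloid cells, was present in 3.35% of matched genes, 8.2% of the falls and 2.75% of the rises. The GC box GGGCGG was present in 61.1% of matched genes, 74.8% of the rises and 50.2% of the falls, which follows the CpG classes in part because its letters hold a CG. At an untreated mean from 7 to 9 the share of the rises was close to that of all genes (72.8% against 70.6%), and that of the falls was 50.0%. At that level the interferon element was present in 12.9% of the falls against 8.09% of all genes, and the PU.1 core in 9.85% against 3.75%. These elements were not alone in this. The TATA box TATAAA was present in 19.7% against 7.98%, the AP-1 site TGANTCA in 14.4% against 6.19% and the kB core GGANTTTCC in 4.55% against 1.69%. Less frequent in the falls were the ETS core CCGGAAGT (4.55% against 11.4%) and the CCAAT box (34.1% against 42.5%). The CCAAT box was present in 84.0% of 25 matched genes of cholesterol and fatty acid synthesis, against 42.3% of matched genes. A match is a description of letters and shows neither binding nor a cause.

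Gbp2 and Gbp3, the interferon-inducible GTPases with the largest falls, carry the interferon element close to the start. Their 100 bases are printed in the same way, with the matches in capitals, for Gbp2 at chr3:142620563-142620662 and for Gbp3 at chr3:142559944-142560043, both on the plus strand.
Gbp2: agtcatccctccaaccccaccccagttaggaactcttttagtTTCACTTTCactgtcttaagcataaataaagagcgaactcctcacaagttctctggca
Gbp3: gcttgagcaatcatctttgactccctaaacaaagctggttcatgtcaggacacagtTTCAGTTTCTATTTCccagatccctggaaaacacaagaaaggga
The match in Gbp2 begins at −58 from the start. In Gbp3 an overlapping pair begins at −44 and −38. Gbp3 has 2 windows, and the window shown was picked for holding the element.

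Genes often used as references were not all steady. Hprt rose by 0.53 ± 0.045 and B2m fell by 0.36 ± 0.044, a call that was lost on the poly-A scale. Actb (beta-actin) changed by −0.17, with a further probe set at −0.28, and both were called over all probe sets. Tbp was not called (0.10 ± 0.065). Il10 was not called either, but at 4.16 in untreated and 3.93 in TSA cells it lay near the floor, where a change would hardly show, and it was called at −0.28 without TSA replicate 2. Tnf rose by 0.28 ± 0.084, a call lost on both spike-in scales, without TSA replicate 1 and without TSA replicate 2. The homing receptor Ccr7 fell by 2.08 ± 0.047.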

How the data were processed

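Total RNA was measured on 9 one-colour Affymetrix arrays, 3 each of untreated, TSA and butyrate cells. The deposited table holds 22690 probe sets as log2 values, the output of RMA according to the submitters' processing notes. The number of arrays limits the precision. RMA's program, version and build were not given in the sources used here. Scan dates were not analysed here. Through the platform annotation 20380 probe sets had 1 symbol, 691 several, 1555 none and 64 were controls. The gene table matched 20351 probe sets and changed 0 symbols. No arrays held identical values.

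All 9 arrays entered 1 linear model of group means in limma (version 3.58.1, R 4.3.3, lmFit and eBayes), which left 6 residual and 3.9 prior degrees of freedom and was checked on simulated data. Benjamini-Hochberg adjustment ran over 12393 genes, or over all probe sets for further probe sets, and calls were made under 0.05. Members, the 57 gene lists and the 12 marker lists were chosen with earlier results of these data known, and 1 further list is not reported here. Named genes are the 12 largest rises and falls among called genes without overlapping arrays, except predicted genes, clone names, segments of antigen receptors, and olfactory and vomeronasal receptors. The same rule gave 8 and 8 with a mean of at least 9. Each list added up to 4 called members with the largest changes and up to 2 that were not called, the brightest. Up to 5 genes with opposite probe sets and some genes given whatever their value complete the rule. Alternatives covered the arrays in the fit, a replicate block, scaling, a level filter, probe set averaging, the prior and each array left out. Scaling to the 24 poly-A spike-in probe sets was added after seeing the data, as were level bins by the mean of both groups and of all arrays.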

Additional observations from a re-analysis of the deposited data

How the results depend on the processing

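Counts of calls stayed within 1.5 times of 5866 under every alternative run except the poly-A spike-in scaling, which was chosen after seeing the data. It called 2497 genes, 1214 higher and 1283 lower, of which 2494 are among the 5866, and 981 further probe sets of called genes in the same direction. The cause was not tested. Past 2-fold it called 259 higher and 413 lower, and no alternative moved these counts beyond 1.5 times. Leaving out 1 array gave 5331 to 5740 calls and 651 to 689 past 2-fold. Whether replicate numbers pair the samples is not given by the labels. The deviations of same-numbered arrays correlated at 0.112, −0.120 and 0.210, which does not decide it. With the replicate block 3204 genes were called higher and 2528 lower. Equal hybridization spike-ins gave 2685 and 2354, the filter on genes above the median level 2661 and 2046 of 6196 genes, and the mean of all probe sets 3208 and 2598. The last 2 were not run for further probe sets. With the mean of all probe sets Ints6 turned to 0.187, Snrpd3 to −0.032 and Wdr20 to 0.089, genes whose probe sets disagree. Of the 138 list counts 94 moved by more than 1.5 times on the poly-A scale, and at most 6 under any other alternative except the level filter, where 28 moved.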
